A study of Gallus gallus with 14 samples.

Results

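Cone photoreceptors turn absorbed light into an electrical signal through a chain of proteins that starts after the visual opsin. Transcripts of the cone forms of transducin (GNAT2, GNB3, GNGT2), of phosphodiesterase and its inhibitory subunit (PDE6C, PDE6H), of the cyclic nucleotide-gated channel (CNGA3, CNGB3), of the opsin kinase (GRK7) and of arrestin (ARR3) were examined in chick retina. The genes were taken by symbol, and 8 of the 9 matched a row among the 18631 genes of the table. GNB3 was not analysed here. Retinas came from White Leghorn chicks, wild type, with an age of postnatal day 3 in the labels of both groups. The lens group (7 retinas, numbered 46, 47, 48, 51, 53, 54 and 55) wore a -10 D lens for 6 days from 3 days of age, which makes the growing eye myopic. The control group (7 retinas, numbered 57, 58, 59, 62, 63, 64 and 65) is labelled only as control retina, and how control eyes were handled is not given. Their age when taken is not given beyond that label either, so any difference in age at collection cannot be told apart from the lens. Whole retina was homogenised, so cone transcripts were measured among those of all other retinal cells. Fewer cone cells and less RNA per cone cannot be told apart in such samples.

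In a cone, light-activated opsin makes the transducin alpha subunit GNAT2 exchange GDP for GTP and leave the beta and gamma subunits. GNAT2 then relieves the phosphodiesterase PDE6C of its inhibitory subunit PDE6H, cyclic GMP is broken down, and the CNGA3 and CNGB3 channel closes. The response ends when GRK7 phosphorylates the opsin, ARR3 binds it, and the RGS9 complex speeds GTP hydrolysis by transducin. Birds have cone-rich retinas, and GRK7 is a kinase of cone opsins that mice and rats lack.

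Values are in CPM, the reads of a gene per 1 M reads of a total that was larger than the reads in the listed genes. A value of 1 CPM stood for 32.3 to 42.6 reads, and the 8 genes were each covered by 798 to 30253 estimated reads per library, so counting error was at most 3.54% of a value. Total depth averaged 35.6 ± 2.31 M reads for control and 39.1 ± 3.26 M reads for lens libraries (SD, n = 7 each). Of the 14 libraries, 3 held almost no W-linked transcripts (control 65, lens 48 and lens 55, at 2.20 to 4.56 CPM in sum, against 616 to 721 CPM in the other 11). Of 9 photoreceptor markers 8 matched, and they summed to 1753 to 2114 CPM in control and 1620 to 1871 CPM in lens retinas, a sum that includes PDE6H. The 9 pigment epithelium markers summed to 4.85 to 7.65 CPM in control and 2.77 to 9.14 CPM in lens retinas, and 5 markers of choroid and fibroblasts to at most 1.65 CPM. The genes of the table held 32.9% to 34.2% of the reads in control and 31.7% to 33.3% in lens libraries, and over all tested genes the log2 fold change had a median of -0.038.

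After 6 days of lens wear the mean level of the shut-off gene GRK7 fell by 30.6% and that of ARR3 fell by 31.8%. In whole retinas, fewer cells of a type and less RNA per cell cannot be told apart. Of the activation genes, the channel subunit CNGA3 fell by 31.2% and the phosphodiesterase PDE6C fell by 19.8%. The transducin subunits GNAT2 and GNGT2, the channel subunit CNGB3 and the inhibitory subunit PDE6H did not pass the test. In limma, with p-values adjusted by the Benjamini-Hochberg method over 11132 genes, 4 of the 8 genes were lower and 0 were higher at an adjusted p under 0.05. Of all tested genes 1.84% were lower and 0.916% were higher. The median log2 fold change of the 8 genes was -0.23.

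**Figure D1:**
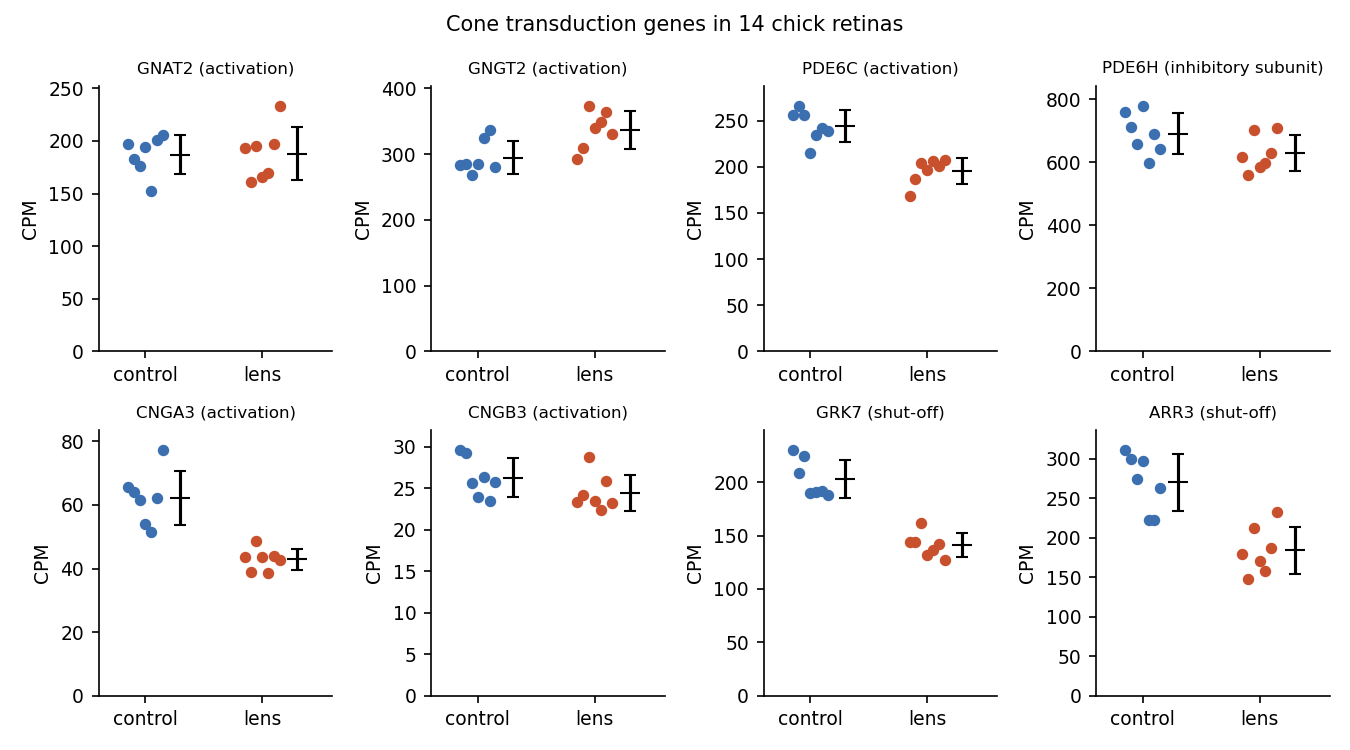
Level of each gene in CPM (vertical axis, from 0) in 7 control and 7 lens retinas. Each point is 1 retina, and the bar beside the points is the mean with its SD. The lens points of PDE6C, CNGA3 and GRK7 all lie below the control points, and the groups overlap for GNAT2 and CNGB3.

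The cone transducin alpha subunit GNAT2 (chromosome 26, 1253145 to 1258008, minus strand, build GRCg6a) is the first protein that active opsin switches on. It measured 153 to 206 CPM in control retinas, with a median of 195 CPM, and 161 to 234 CPM in lens retinas, with a median of 193 CPM. The groups overlapped almost fully, and lens 55 alone lay above every control. The log2 fold change was 0.0011 ± 0.079 (SE, limma adjusted p = 0.996), and its 95% interval of -0.17 to 0.17 leaves room for a moderate change in either direction. Its sign turned to negative in 7 of the 14 fits that left out 1 retina, furthest without lens 55, at -0.053.

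The gamma subunit GNGT2 (chromosome 27, 6045993 to 6048246, plus strand) anchors the transducin beta and gamma dimer to the membrane. It measured 268 to 336 CPM in control, with a median of 285 CPM, and 293 to 374 CPM in lens retinas, with a median of 340 CPM. It had the highest log2 fold change of the 8 genes, and its values exceeded every control in 4 of 7 lens retinas. The log2 fold change was 0.19 ± 0.060 (SE, limma adjusted p = 0.104), which does not pass. With the 4 other scalings of the libraries it passed as higher, at an adjusted p of 0.0476 with trimmed-mean scaling (TMM), 0.0429 by the median of ratios, 0.0343 once the listed genes had equal sums and 0.00698 with quantile-normalized values. It also passed without control 64 (adjusted p = 0.0488) and without lens 46 (adjusted p = 0.0485). The whole interval of GNGT2 lies within that of ABI3 on the other strand, which measured 1.52 CPM without and 1.30 CPM with the lens.

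PDE6C (chromosome 6, 21315128 to 21343740, minus strand), the catalytic subunit that hydrolyses cyclic GMP in cones, fell. It measured 215 to 266 CPM in control, with a median of 242 CPM, and 168 to 207 CPM in lens retinas, with a median of 201 CPM. All 7 lens retinas lay below the lowest control, a separation seen in 0.97% of all tested genes in this direction. The mean was 244 ± 17.2 CPM in control and 196 ± 13.9 CPM with the lens (SD, n = 7 each), a log2 fold change of -0.32 ± 0.053 (SE, limma adjusted p = 0.00225). The 3' part of its interval overlaps FRA10AC1 on the other strand by 5868 bases. FRA10AC1 measured 18.9 CPM without and 19.2 CPM with the lens.

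PDE6H (chromosome 1, 47967698 to 47976084, minus strand) encodes the small subunit that holds the cone phosphodiesterase inactive in the dark. It measured 598 to 780 CPM in control, with a median of 689 CPM, and 558 to 709 CPM in lens retinas, with a median of 618 CPM. The groups overlapped, and 2 of 7 lens retinas lay below every control. The log2 fold change was -0.14 ± 0.064 (SE, limma adjusted p = 0.303).

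The channel is built from a pore-forming and a modulatory subunit. CNGA3 (chromosome 1, 133234443 to 133268782, minus strand), which forms the pore, measured 51.3 to 77.3 CPM in control, with a median of 62.3 CPM, and 38.5 to 48.8 CPM in lens retinas, with a median of 43.5 CPM. Every lens retina lay below every control. The mean was 62.3 ± 8.47 CPM in control and 42.8 ± 3.44 CPM with the lens (SD, n = 7 each), a log2 fold change of -0.52 ± 0.075 (SE, limma adjusted p = 5.25e-04). CNGB3 (chromosome 2, 123079174 to 123106029, minus strand), the modulatory subunit, measured 23.5 to 29.6 CPM in control, with a median of 25.7 CPM, and 22.4 to 28.7 CPM in lens retinas, with a median of 23.5 CPM. Its groups overlapped, with a log2 fold change of -0.099 ± 0.063 (SE, limma adjusted p = 0.474).

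GRK7 (chromosome 9, 10421447 to 10446325, plus strand), the kinase that phosphorylates active cone opsin, gave the lowest adjusted p among the 8. It measured 188 to 230 CPM in control, with a median of 192 CPM, and 127 to 162 CPM in lens retinas, with a median of 143 CPM. The groups were separated by a gap, from 162 CPM in the highest lens retina (48) to 188 CPM in the lowest control (65). The mean was 203 ± 18.0 CPM in control and 141 ± 11.0 CPM with the lens (SD, n = 7 each), a log2 fold change of -0.52 ± 0.058 (SE, limma adjusted p = 7.78e-05). A pair of genes on the same strand overlaps it, so their reads may be shared. ATP1B3, which shares 18921 bases with it, averaged 115 ± 5.98 CPM without and 110 ± 5.16 CPM with the lens (SD, n = 7 each). RNF7, which shares 1512 bases with it, measured 7.98 CPM without and 8.17 CPM with the lens.

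ARR3 (chromosome 4, 1239933 to 1254920, plus strand), the cone arrestin that caps phosphorylated opsin, fell as well. It measured 223 to 311 CPM in control, with a median of 274 CPM, and 148 to 232 CPM in lens retinas, with a median of 180 CPM. Lens retina 55, the highest of its group, lay above the 2 lowest controls (63 and 64), and the other 6 lay below every control. The mean was 270.0 ± 35.9 CPM in control and 184 ± 29.6 CPM with the lens (SD, n = 7 each), a log2 fold change of -0.55 ± 0.098 (SE, limma adjusted p = 0.00352). It did not pass by exact permutation per gene (adjusted p = 0.0649). Its relative spread within groups, 13.3% in control and 16.1% in lens retinas, was wider than that of GRK7, at 8.86% and 7.78%. RAB41 overlaps it on the same strand by 8248 bases and measured 34.2 CPM without and 33.0 CPM with the lens.

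The 4 genes that fell also fell among retinas whose code ends in L (5 control, 4 lens) and among those whose code ends in R (2 control, 3 lens). The labels do not explain that letter. For GRK7, CNGA3 and PDE6C every lens retina lay below every control, so their direction in any split of the retinas was fixed in advance. For these genes only the size of the difference could vary. The log2 differences in the L and R retinas were -0.49 and -0.55 for GRK7, -0.54 and -0.55 for ARR3, -0.50 and -0.51 for CNGA3, and -0.33 and -0.32 for PDE6C. Without the 3 libraries that lack W-linked transcripts the 4 calls held, with log2 fold changes of -0.55, -0.67, -0.51 and -0.35 in the same order. Among those 3 libraries the lens difference, with 1 control and so no test, was -0.39 for GRK7, -0.25 for ARR3, -0.75 for CNGA3 and -0.22 for PDE6C.

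Activation and shut-off were then set against each other within each retina, which all but removes the scale factor of a library. The mean log2(CPM + 1) of GRK7 and ARR3 less that of GNAT2, GNGT2, PDE6C, CNGA3 and CNGB3 was 0.78 to 1.11 in control retinas, with a median of 1.03. In lens retinas it was 0.53 to 0.68, with a median of 0.57, so that all 7 lay below the lowest control, retina 64. The group means were 0.99 ± 0.14 (SD, n = 7) and 0.60 ± 0.064 (SD, n = 7), a difference of -0.39 that is given without a test, since the genes were chosen with earlier results known. The activation mean itself moved less, from 6.88 ± 0.073 to 6.74 ± 0.091 (SD, n = 7 each), with 4 of 7 lens retinas below every control. The shut-off mean went from 7.87 ± 0.14 to 7.33 ± 0.13 (SD, n = 7 each), with all 7 below. That separation largely repeats those of its genes, since GRK7 by itself had all 7 below and ARR3 had 6 of 7. The activation genes did not move as a block, since CNGA3 fell and GNAT2 did not pass, a difference that is tested next.

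**Figure D2:**
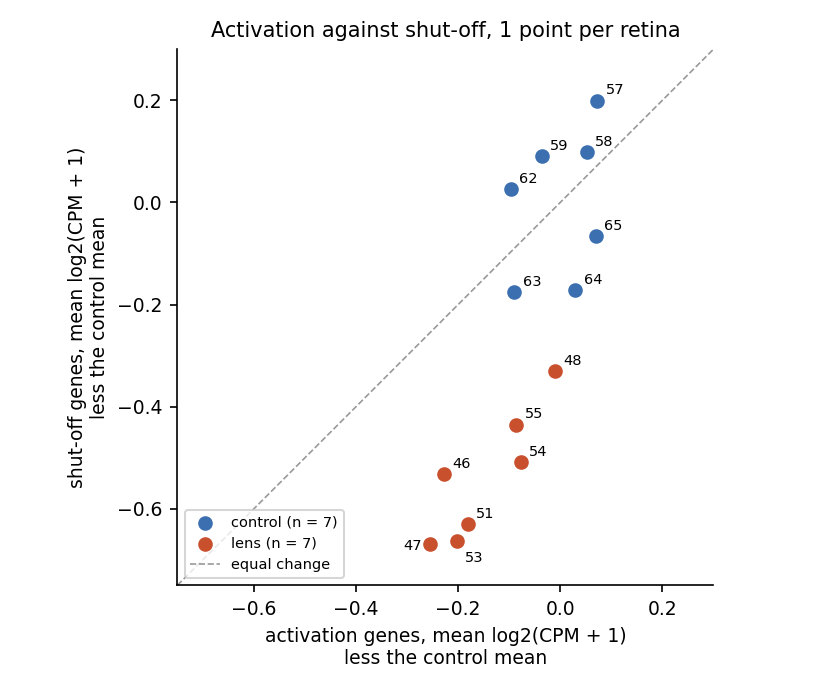
Mean log2(CPM + 1) of the 5 activation genes (horizontal axis) and of the 2 shut-off genes (vertical axis) in each retina, both less the control mean, with the retina's number beside its point. Points on the dashed line changed equally in both, and all 7 lens retinas lie below that line and below every control on the vertical axis.

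To test whether a gene's lens effect differed from that on transducin, every gene was divided by GNAT2 within its own library and the fit was repeated. Relative to GNAT2, ARR3 was lower by a log2 value of -0.56 ± 0.095 (SE, limma adjusted p = 0.00210), CNGA3 by -0.52 ± 0.097 (SE, limma adjusted p = 0.00420) and GRK7 by -0.52 ± 0.11 (SE, limma adjusted p = 0.0146). Thus 3 of 7 genes were lower relative to GNAT2 and 0 were higher, where 0.216% of 11131 genes were lower and 0.243% were higher. The same GNAT2 values enter every ratio, so these calls share its error and are not independent. In limma each gene's spread is also estimated with help from the other genes, which here carry that same error. These adjusted p-values may therefore be too small. PDE6C, at -0.32 ± 0.10 (SE, limma adjusted p = 0.307), did not pass, so its fall was not distinguished from the lens effect on GNAT2. GNGT2, at 0.19 with a 95% interval of -0.029 to 0.41, PDE6H, at -0.14 with an interval of -0.32 to 0.044, and CNGB3, at -0.10 with an interval of -0.32 to 0.12, did not pass either. The GRK7 call was lost without control 57 (adjusted p = 0.0516) or control 59 (adjusted p = 0.0510). With the exact permutation test 0 of 7 passed after adjustment (adjusted p = 0.162 for each of the 3), and no gene of the table passed. There 5 of 7 had an unadjusted p under 0.05, as did 6.35% of all tested genes.

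**Figure D3:**
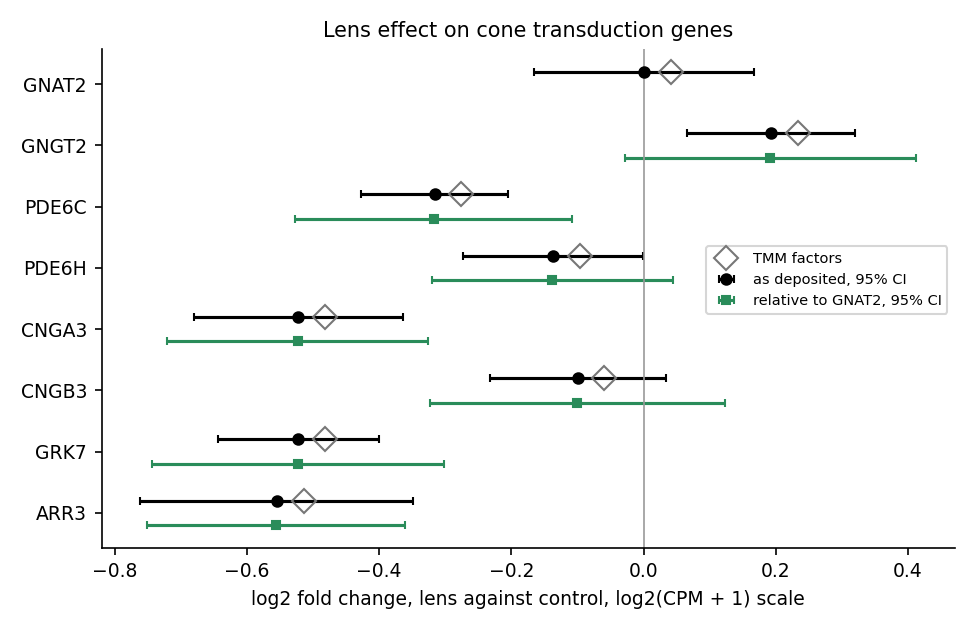
Log2 fold change of lens against control on the log2(CPM + 1) scale (horizontal axis) for each of the 8 genes. Black points use the values as deposited and green squares the ratio to GNAT2, both with 95% intervals, and open diamonds use TMM factors. ARR3, GRK7 and CNGA3 lie furthest left on each of the 3 scales shown.

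Put as plain ratios, GRK7 over GNAT2 was 0.913 to 1.28 in control retinas, with a median of 1.14. In lens retinas it was 0.546 to 0.896, with a median of 0.796. The lowest value came from lens 55, which had the lowest GRK7 and the highest GNAT2 of its group. ARR3 over GNAT2 was 1.11 to 1.64 in control, with a median of 1.52, and 0.922 to 1.09 in lens retinas, with a median of 0.952. For both ratios all 7 lens retinas lay below all 7 controls. By itself GRK7 already had all 7 lens retinas below every control, and ARR3 had 6 of 7. The share of all genes whose ratio to GNAT2 separates the groups in this way was not counted. Each ratio compares retinas and does not give relative transcript numbers, because CPM values are not corrected for gene length.

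Proteins that work as partners in 1 complex were compared in the same way, with the partner as the reference. These 2 comparisons were added after the values were seen. Their reference gene likewise enters every ratio, so their limma adjusted p-values may also be too small. CNGA3 over CNGB3 was 1.95 to 3.00 in control, with a median of 2.26, and 1.61 to 1.87 in lens retinas, with a median of 1.72. The groups did not overlap, but those of CNGA3 by itself did not overlap either. The share of all genes separated relative to CNGB3 was not counted. Relative to CNGB3, CNGA3 was lower by a log2 value of -0.42 ± 0.085 (SE, limma adjusted p = 0.00819), where 0.925% of genes were called in either direction. That call was lost in the exact permutation test (adjusted p = 0.127). PDE6H over PDE6C was 2.55 to 3.63 in control, with a median of 2.70, and 2.90 to 3.67 in lens retinas, with a median of 3.13, and the groups overlapped. Relative to PDE6C, PDE6H was higher by 0.18 ± 0.075 (SE, limma adjusted p = 0.0400), but 71.9% of all genes were called relative to PDE6C, so that call is not particular to PDE6H.

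**Figure D4:**
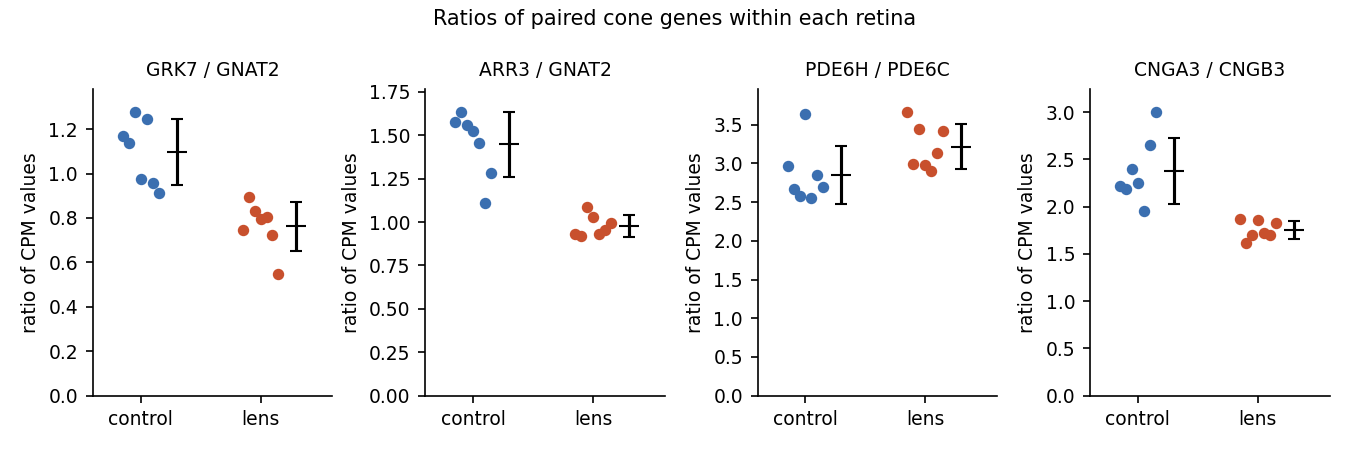
Ratio of the CPM values of 2 genes within each retina (vertical axis, from 0) for GRK7 over GNAT2, ARR3 over GNAT2, PDE6H over PDE6C and CNGA3 over CNGB3. Each point is 1 of 7 control or 7 lens retinas, with the mean and SD beside them. The lens points lie below all control points in each panel except PDE6H over PDE6C.

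Of 31 other phototransduction genes listed, 27 matched the table and 26 were tested. Of these 3 rose, 6 fell and 17 did not pass, where 0.916% of all tested genes rose and 1.84% fell. The median log2 fold change of the 26 was -0.025, close to that of all tested genes. In the complex that speeds GTP hydrolysis by transducin, a shut-off step, 2 of 3 genes fell. The anchor protein RGS9BP was 313 ± 37.7 CPM in control and 243 ± 16.8 CPM with the lens (SD, n = 7 each), and the GTPase activator RGS9 was 119 ± 8.20 CPM in control and 102 ± 9.19 CPM with the lens (SD, n = 7 each). Their log2 fold changes were -0.36 ± 0.068 (SE, limma adjusted p = 0.00575) and -0.23 ± 0.056 (SE, limma adjusted p = 0.0334). The third, GNB5, the beta subunit that stabilises RGS9, was at -0.15 ± 0.045 (SE, limma adjusted p = 0.0981). In the exact permutation test RGS9BP (adjusted p = 0.0519) and RGS9 (adjusted p = 0.115) lost their calls. RGS9 did not pass under any of the 4 other scalings (adjusted p = 0.101 for TMM), nor in 9 of 14 leave-one-out fits. The RGS9 complex serves both rods and cones.

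The recovery step that remakes cyclic GMP moved both ways. The guanylate cyclase activator GUCA1C fell from 205 ± 19.3 CPM to 144 ± 5.68 CPM (SD, n = 7 each), with every lens retina below every control (limma adjusted p = 7.78e-05), and the related activator GUCA1B rose from 33.8 ± 2.85 CPM to 42.6 ± 2.85 CPM (SD, n = 7 each), with every lens retina above, as in 0.557% of tested genes (limma adjusted p = 0.00303). The activator GUCA1A, at -0.19 (limma adjusted p = 0.524), and the cyclase GUCY2F, at -0.24 (limma adjusted p = 0.297), did not pass. Of the exchangers that carry calcium out of photoreceptors in exchange for sodium, SLC24A2 and SLC24A4 fell, by log2 values of -0.21 ± 0.051 and -0.63 ± 0.071 (SE, limma adjusted p = 0.0332 and 8.46e-05). The rod form SLC24A1 was at 0.38 ± 0.11 (SE, limma adjusted p = 0.0871). SLC24A2 did not pass in the exact permutation test (adjusted p = 0.0877) or under any of the 4 other scalings (adjusted p = 0.128 for TMM), nor in 9 of 14 leave-one-out fits.

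Upstream of the chain, 1 of 3 tested opsins passed, where 0.916% of all tested genes rose. The long-wave opsin OPN1LW rose from 133 ± 26.5 CPM to 224 ± 68.7 CPM (SD, n = 7 each), with a log2 fold change of 0.72 (limma adjusted p = 0.0176). It did not pass under a robust prior (adjusted p = 0.0572) or by exact permutation (adjusted p = 0.0649). Its groups overlapped. OPN1MSW, the green-cone opsin, averaged 60.9 ± 9.54 CPM without and 79.9 ± 23.1 CPM with the lens (SD, n = 7 each) (limma adjusted p = 0.191). The third, OPN1SW, was low, at 1.55 CPM without and 1.42 CPM with the lens, with a log2 fold change of -0.069 (limma adjusted p = 0.882). OPN2SW, at 0.471 CPM without and 0.417 CPM with the lens, was too low to be tested. Among the 5 genes for folding and transport of these proteins (AIPL1, PDE6D, UNC119, PDC and PDCL) 0 passed in limma. Their limma adjusted p ran from 0.447 to 0.959, where 0.916% of all tested genes rose and 1.84% fell. At such shares a list of 5 genes can easily give 0. In limma 0 of them had an unadjusted p under 0.05, but that share over all genes was not counted.

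**Figure D5:**
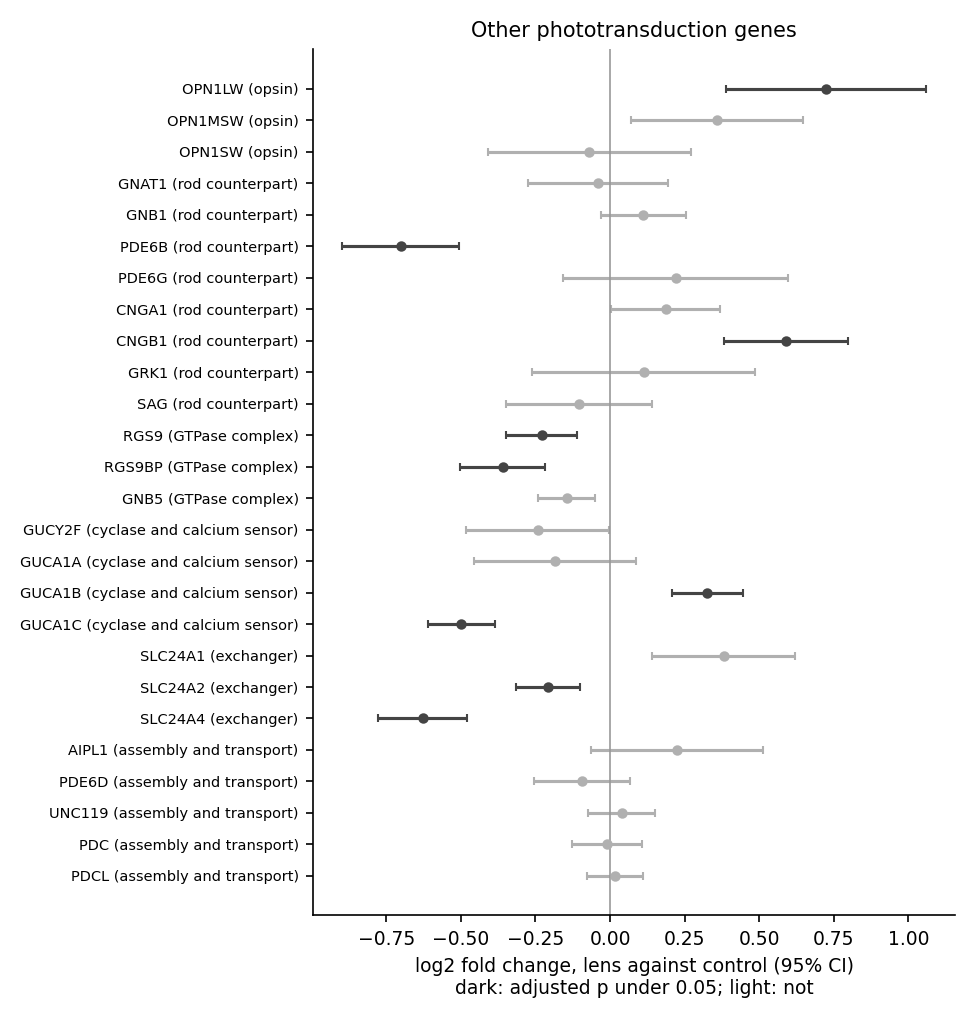
Log2 fold change of lens against control with its 95% interval (horizontal axis) for the 26 tested phototransduction genes outside the chain described, grouped by role. Dark symbols have an adjusted p under 0.05. OPN1LW, CNGB1 and GUCA1B lie to the right, and PDE6B, SLC24A4, GUCA1C, RGS9BP, RGS9 and SLC24A2 to the left.

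The rod counterparts of the same steps were compared in the same fit. Of 8 tested, 1 rose, 1 fell and 6 did not pass, where 0.916% of all tested genes rose and 1.84% fell, and the median log2 fold change of the 8 was 0.11. The rod transducin alpha subunit GNAT1 was at -0.041 (limma adjusted p = 0.905), the beta subunit GNB1 at 0.11 (limma adjusted p = 0.446) and the inhibitory phosphodiesterase subunit PDE6G at 0.22 (limma adjusted p = 0.595). The rod phosphodiesterase subunit PDE6B fell from 91.6 ± 10.8 CPM to 56.3 ± 10.2 CPM (SD, n = 7 each), as its cone relative PDE6C did (limma adjusted p = 2.54e-04). Between the channels the subunits differed, with the rod modulatory subunit CNGB1 rising from 13.5 ± 2.06 CPM to 20.9 ± 2.97 CPM (SD, n = 7 each, limma adjusted p = 0.00215) and the rod pore subunit CNGA1 at 0.19 (limma adjusted p = 0.297). In the exact permutation test PDE6B (adjusted p = 0.0519) and CNGB1 (adjusted p = 0.0649) lost their calls. For shut-off, the rod kinase GRK1 measured 0.959 CPM without and 1.16 CPM with the lens, near the lower limit of the test. The arrestin SAG was at -0.10 with a 95% interval of -0.35 to 0.14 (limma adjusted p = 0.721).

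Some markers of retinal cell types fell as well, where 1.84% of all tested genes were lower. The rod marker list, 5 of 5 genes at 1 CPM or more on average, summed to 297 to 466 CPM in control and 303 to 392 CPM in lens retinas. It holds 4 of the rod counterparts above, and SAG gives most of the sum. Its other gene, NR2E3, a nuclear receptor of rods, fell from 2.57 ± 0.63 CPM to 1.07 ± 0.21 CPM (SD, n = 7 each, limma adjusted p = 4.97e-04). Of the 8 cone and photoreceptor markers tested, 2 fell and 6 did not pass. OTX2, ROM1, RXRG, THRB and PDE6H did not pass, nor did PRPH2, which averaged 212 CPM without and 229 CPM with the lens. Those that fell were the matrix proteoglycans IMPG1, from 408 to 319 CPM (limma adjusted p = 0.00215), and IMPG2, from 217 to 179 CPM (limma adjusted p = 0.00279). The 5 amacrine cell markers summed to 428 to 467 CPM in control and 384 to 426 CPM in lens retinas. These sums did not overlap, but the gap from 426 to 428 CPM was narrow and no other scaling was tried on it. GAD1 gives most of that sum, at 326 CPM without and 302 CPM with the lens. The sums of the other marker lists with matched genes overlapped between the groups. How often sums of genes outside these lists separate the groups was not counted. Of the 5 amacrine markers, 3 fell (TFAP2B, SLC32A1 and SLC6A9). The 7 ganglion cell markers summed to 183 to 235 CPM in control and 161 to 216 CPM in lens retinas, and 1 of them, NEFM, fell. The sums overlapped between groups for 3 bipolar markers (226 to 268 CPM and 213 to 255 CPM), 4 horizontal cell markers (122 to 146 CPM and 127 to 148 CPM) and 6 Muller glia markers (949 to 1123 CPM and 895 to 1196 CPM). The part of these markers in the falls was not tested.

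As a description of which genes varied alongside, the log2 values of each gene less their group means were correlated over the 14 libraries. Depth and scaling differed between libraries and were common to all genes within a library, and they were not removed here. Outside the 8 genes, the 3 closest to GRK7 were RGS9BP (r = 0.88), ASAH1 (r = 0.87) and CCT8 (r = 0.86). The closest to ARR3 were HSPBP1 (r = 0.91), CYTH1 (r = 0.89) and FSCN2 (r = 0.88), and to GNAT2 they were NTM (r = 0.94), MARCH4 (r = 0.93) and SDK2 (r = 0.92). These are the largest of the values over all tested genes and carry no test. Of these 9 genes RGS9BP and MARCH4 fell with the lens. MARCH4 was 66.9 ± 2.89 CPM in control and 53.5 ± 3.63 CPM with the lens (SD, n = 7 each), with a limma adjusted p of 4.76e-04.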

How the data were processed

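Total RNA of 14 retinas was sequenced after ribosomal RNA depletion with a stranded kit, per the labels' protocols. STAR, Partek and build GRCg6a are named, per the submitters' processing notes. How reads were counted, and with which strand setting, is not given in the sources used here. Deposited by the authors was 1 table of CPM values, with 0.0001 added to each. The value of 1 read, the most frequent low value, gave the depth, and 93.4% to 94.3% of low values were whole reads within 0.02 of a read, so values were not treated as counts. No 2 libraries agreed within counting noise (lowest chi-square per gene 5.92).

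Testing covered genes that reached 1 CPM in 7 or more libraries, on log2(CPM + 1), a scale that understates changes of low genes, in limma-trend (limma 3.58.1 under R 4.3.3) with all 14 libraries and no covariate. Groups and numbers come from the titles, which do not give the animal of a library, so p-values measure the spread between these samples. The members and lists were chosen with earlier results of these data known, and 1 listed gene is not reported here. The text names all matched members, genes that overlap them, pathway genes past the threshold, rod counterparts, and the 3 genes closest to each of GRK7, ARR3 and GNAT2. Other listed genes were named after their values were seen. A smaller overlap, of ARR3 with a gene at under 0.02 CPM, is not described. On simulated reads for lens against control (11163 genes) the test recovered 40.3% of genes changed 1.2-fold and 100% of those changed 1.5-fold. Relative to GNAT2 (11162 genes) it recovered 1.49% and 83.6%. Of the calls, 6.43% were false for lens against control and 0 relative to GNAT2. The simulation gave all genes the same spread, taken from the median control variance, with independent noise and no library factor. Real genes differ in spread, so these shares need not hold for the genes described here. Alternatives were 13 settings and leaving out each library. Chromosome names came from the RefSeq gene table of GRCg7b, in which 15419 symbols matched. Start and stop are as deposited. Figures used matplotlib version 3.10.9 in Python version 3.11.15.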

Additional observations from a re-analysis of the deposited data

Results flagged for a closer look

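Of 26 sets of 7 values checked for a sample far from the others (8 genes and 5 within-retina measures in each group), 1 was singled out. PDE6H over PDE6C was 3.63 in control 62, where the next control was at 2.97 and the lowest at 2.55. Control 62 had the highest PDE6H (780 CPM) and the lowest PDE6C (215 CPM) of its group. Chance gives about 1 such set in 20.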

How the results depend on the processing

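No paired analysis was possible because the groups share no replicate number. The count of the 8 genes called was 3 to 5 over all alternatives, and the calls of GRK7, CNGA3 and PDE6C held in each of the 13 settings and in each of the 14 leave-one-out fits (GRK7 log2 fold change -0.56 to -0.49 over the latter). GNAT2 turned negative with W-linked expression as a covariate (-0.028), without the libraries lacking W-linked transcripts (-0.053), and in 7 of 14 leave-one-out fits (range -0.053 to 0.037). In the exact permutation test per gene 3 of the other phototransduction genes passed in place of 9, and 0 genes passed relative to GNAT2 in place of 3. That test cannot give a p below 5.83e-04, which limits it after adjustment. Relative to GNAT2, PDE6C passed with array weights (adjusted p = 0.0471). PDE6H relative to PDE6C lost its call without the 3 libraries lacking W-linked transcripts (adjusted p = 0.174), in the permutation test (adjusted p = 0.0739) and in 8 of 14 leave-one-out fits. TMM factors left the shut-off less activation difference at -0.39, and leaving out 1 library gave -0.42 to -0.37. With TMM factors 150 genes of the table were higher and 109 lower, against 102 and 205 as deposited, and by exact permutation 62 were higher and 108 lower.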
